A study of Rattus norvegicus with 12 samples.

Results

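The integrated stress response genes Atf4, Atf5, Atf3, Ddit3, Xbp1, Ppp1r15a, Trib3, Sesn2, Asns, and Chac1 were chosen by gene name, and all 10 were found among the 17301 gene names of the expression tables. They were measured by RNA sequencing in primary adult rat ventricular myocytes (ARVMs), the contractile cells of the ventricle, isolated from male Sprague-Dawley rats. ARVMs were transduced at 50 MOI (virus per cell) with an adenovirus carrying human NR4A2 cDNA under the CMV promoter (Ad-h-NR4A2) or enhanced GFP (Ad-GFP), and RNA was collected 48 h later. Each group had 6 samples, with the numbers 24 to 29 used in both, and the design text describes independent experiments with cells of different rats. Both groups carried a virus and were cultured in the presence of BDM, an inhibitor of contraction, and untransduced cells are not analysed here. NR4A2 is an orphan nuclear receptor, and the comparison asks which transcripts change when its level is raised.

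The integrated stress response starts with kinases, among them PERK (Eif2ak3) and GCN2 (Eif2ak4), that phosphorylate the translation factor eIF2α when proteins misfold in the endoplasmic reticulum (ER) or amino acids run short. Most translation then slows, whereas translation of ATF4 increases, so that Atf4 mRNA can stay level while ATF4 protein changes. ATF4 is a bZIP transcription factor that induces further factors (Atf5, Atf3, and Ddit3, which encodes CHOP), feedback inhibitors (Ppp1r15a and Trib3), and genes of amino acid and redox metabolism (Asns, Sesn2, and Chac1). Xbp1 belongs to a parallel branch of the ER stress response, in which IRE1 (Ern1) splices Xbp1 mRNA and ATF6 raises Xbp1 transcription.

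Sequences of known binding sites were looked up in the promoters of the members, to show which of them carry one next to the start site. RefSeq promoters of the GRCr8 assembly, from 250 bases before to 50 after the start of the gene, were found for 9 of the 10 members. No promoter was found for Atf3, which was thus not searched. Both strands were searched for 4 motifs among 33365 promoters. The C/EBP-ATF response element TGATGNAA, which ATF4 and CHOP bind with C/EBP partners, was found in Chac1 and Trib3 and in 3.98% of all promoters. The cAMP response element TGACGTCA was found in Ppp1r15a and in 1.83%, and the ER stress response element (ERSE) in Xbp1 and in 0.0659%. The NR4A monomer site AAAGGTCA, present in 1.42% of promoters, was in none of the 9 searched, which says only that these letters are absent from these windows. The letters of the motif are in capitals, and the 20 bases before them and up to 20 after them are in lower case, 5′ to 3′ on the strand of the gene, on which the elements of Chac1 and Trib3 read as the reverse complement.
Chac1, chr3:126795944-126795991, plus strand, 167 bases before the start: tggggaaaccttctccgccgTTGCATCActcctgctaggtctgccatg
Trib3, chr3:161275534-161275574, minus strand, 21 bases before the start: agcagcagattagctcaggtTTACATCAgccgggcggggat
Ppp1r15a, chr1:105139635-105139682, minus strand, 66 bases before the start: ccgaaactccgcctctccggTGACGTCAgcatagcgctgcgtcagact
Xbp1, chr14:84604538-84604596, plus strand, 65 bases before the start: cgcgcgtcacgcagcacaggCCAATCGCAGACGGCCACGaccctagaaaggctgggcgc
The expression tables hold no binding data for these sites.

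Expression is given as FPKM, the fragments on a transcript scaled to its length and to the mapped fragments of the sample. The depth implied by the values was 18800000 to 27800000 fragments in Ad-GFP and 21600000 to 27100000 in Ad-h-NR4A2 samples. Nr4a2 was at 0.626 to 1.40 FPKM in Ad-GFP and 445 to 592 in Ad-h-NR4A2 samples, as labeled. These are values of the rat gene, and reads of the human transgene were not told apart from its own. The summed FPKM of 6 cardiomyocyte markers was 17688 to 22842 in Ad-GFP and 15658 to 19261 in Ad-h-NR4A2 samples, with Myh7 (ratio of means 0.563) and Ryr2 (0.624) called lower and a median log2 difference of -0.41. The sum of 22 markers of other cell types was 44.4 to 80.4 and 58.6 to 108, respectively, and without Csf1r, which rose from 10.1 to 40.2 FPKM, it was 27.6 to 70.5 and 19.4 to 64.8. Col3a1 was the only 1 called of 6 fibroblast markers tested, and Myh11 the only 1 of 5 smooth muscle and pericyte markers, both lower. With the sample number fitted as a block, Col1a1 (ratio of means 0.612) was also called lower. The median log2 difference was -0.33 for fibroblast, -0.12 for smooth muscle and pericyte, and -0.01 for endothelial markers. Of 5 endothelial markers, 0 were called. Of 2 macrophage and leukocyte markers tested, Csf1r was called higher (limma adjusted p = 2.15e-06) and Cd68, below 1 FPKM in all samples, was not called. The fibroblast marker Col1a2 was listed at 0. The part of other cell types in the results below was not tested. In bulk RNA, fewer cells of a type and less RNA per cell cannot be told apart.

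Of the 10 genes, 3 were differentially expressed in Ad-h-NR4A2 samples, with a limma adjusted p below 0.05 and group means that differed by 1.5-fold or more, compared with 15.2% of the 10950 genes tested. Ddit3 and Trib3 fell, as did 7.24% of the genes tested, and Xbp1 rose, as did 7.94%. Atf4 itself, and the amino acid and glutathione genes Asns and Chac1, did not pass the test. By the adjusted p alone, 3 members and 40.9% of all genes passed, 1 member and 19.3% of all genes being higher and 2 members and 21.7% lower. When the sample number was fitted as a replicate block, which compares same-numbered samples, 7 members and 59.4% of all genes passed. Of the members, 6 were lower in Ad-h-NR4A2 samples (Atf5, Atf3, Ddit3, Ppp1r15a, Trib3, and Sesn2), as were 32.3% of all genes, and 1 was higher, as were 27.1%. The block and the 1.5-fold limit together gave 16.7% of all genes, 8.55% higher and 8.12% lower, and the same 3 members. The median log2 difference was -0.29 over the members and -0.02 over all genes tested.

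**Figure D1:**
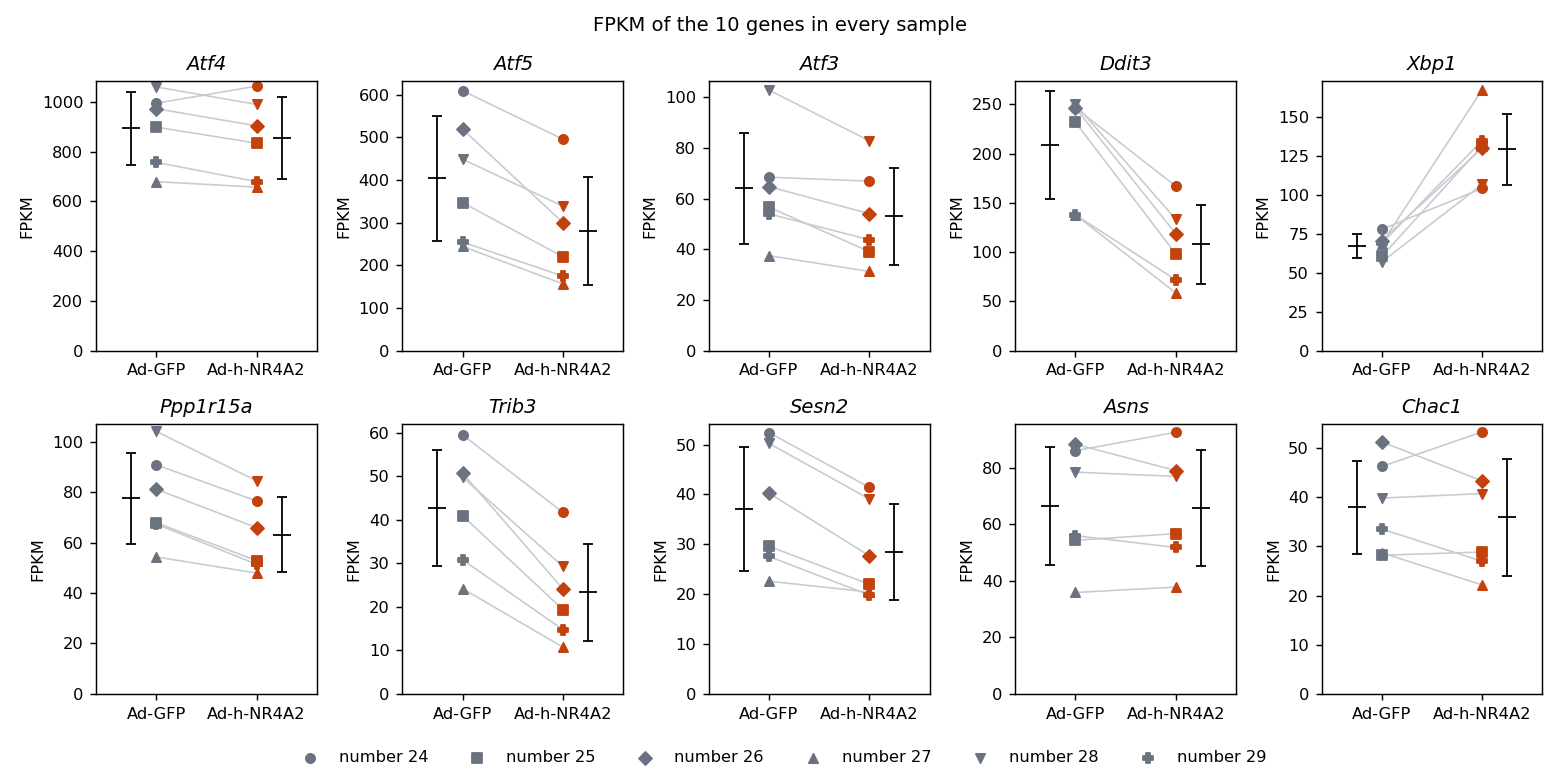
FPKM of the 10 genes in each of the 6 Ad-GFP and 6 Ad-h-NR4A2 samples, with a marker shape for each sample number, gray lines between same-numbered samples, and bars for the mean and SD. The groups overlap in every panel but that of Xbp1, in which all Ad-h-NR4A2 samples, 104 to 168 FPKM, lie above all Ad-GFP samples, 57.0 to 78.0 FPKM.

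In Ad-GFP samples, mean FPKM was highest for Atf4, followed by Atf5, Ddit3, and Ppp1r15a, and this order held in 6 of 6 samples at each step. Next came Xbp1, Asns, and Atf3, and in each step from Ppp1r15a to Atf3 the upper gene was higher in only 3 or 4 of 6 samples, although Ppp1r15a was above Atf3 in 6 of 6. Atf3 was above Trib3 in 6 of 6 samples, whereas in the steps from Trib3 to Chac1 and from Chac1 to Sesn2 the upper gene was higher in 3 of 6. Mean FPKM of Atf4 exceeded that of 98.7% of the genes tested, and that of Sesn2, the lowest, exceeded 74.0%.

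Atf4 (Rn5 chromosome 7, 121468538 to 121470596) showed no detectable difference between the groups. Its FPKM averaged 893 ± 147 (SD, n = 6) across Ad-GFP samples, with 679 as the lowest value, a median of 935, and 1060 as the highest. In Ad-h-NR4A2 samples it was 854 ± 164, from 657 through a median of 869 to 1063. The log2 difference was -0.07 (SE 0.14, limma adjusted p = 0.717), with a 95% interval from -0.36 to 0.22. With the replicate block, the interval narrowed to -0.15 to 0.0062 (adjusted p = 0.103), and Atf4 was lower in 5 of 6 pairs. With the block, Atf4 passed when the pair numbered 24 was left out (log2 difference -0.10, adjusted p = 0.0112) and after quantile normalization (-0.10, adjusted p = 0.0127).

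Atf5 (chromosome 1, 101873010 to 101875285), a bZIP factor that acts in the mitochondrial stress response, was at 404 ± 147 FPKM in Ad-GFP samples and 281 ± 127 in Ad-h-NR4A2 samples. Values ran from 244 through a median of 398 to 609, and from 156 through a median of 260 to 495, respectively, and thus overlapped. The log2 difference was -0.56 (SE 0.30), which did not pass without the block (limma adjusted p = 0.150) but passed when Ad-h-NR4A2 sample 24 was left out (-0.74, adjusted p = 0.0417). Atf5 was lower in 6 of 6 pairs, as were 29.1% of all genes tested, with Ad-h-NR4A2 at 0.578 to 0.813 times Ad-GFP, and with the block it passed (SE 0.058, adjusted p = 3.61e-05).

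Atf3 (chromosome 13, 114411693 to 114443432), an early-response repressor of the same family, showed a smaller difference. FPKM was 64.0 ± 21.8 in Ad-GFP samples (37.5 to 103, median 60.7) and 53.0 ± 19.2 in Ad-h-NR4A2 samples (31.3 to 82.8, median 48.9). The log2 difference of -0.28 (SE 0.25) did not pass in limma without the block (adjusted p = 0.396) and passed with it (SE 0.053, adjusted p = 0.00143). Without the block, it was -0.13 when Ad-GFP sample 28 was left out, -0.15 without Ad-h-NR4A2 sample 27, and -0.43 without Ad-h-NR4A2 sample 28, and none of these passed. Atf3 was lower in 6 of 6 pairs, although in the pair numbered 24 the ratio was 0.978.

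Ddit3 (chromosome 7, 70754398 to 70776456) encodes CHOP, a factor tied to cell death under lasting ER stress, and it fell to 0.518 times its Ad-GFP mean. FPKM was 208 ± 55.0 in Ad-GFP samples, with values from 138 through a median of 239 to 250. In Ad-h-NR4A2 samples it was 108 ± 40.1, with values from 58.6 through a median of 108 to 167. The groups overlapped, because Ad-h-NR4A2 sample 24, at 167 FPKM, lay above Ad-GFP samples 27 and 29, both at 138. The log2 difference was -0.99 (SE 0.25, limma adjusted p = 0.00649), and an exact permutation test over all 924 splits, which ignore the sample numbers, gave p = 0.0108. An exact sign-flip test of same-numbered pairs gave p = 0.03125, the smallest that 64 flips can give. Any gene with all 6 pairs in the same direction reaches it, and 29.1% of all genes tested were lower in 6 of 6. Atf5, Atf3, Ppp1r15a, and Sesn2, which were not differentially expressed, had the same sign-flip p. In same-numbered pairs Ddit3 was lower in 6 of 6, at 0.424 to 0.677 times the Ad-GFP value. Of the 2 Ddit3 transcripts, which differ by 48 nucleotides in length, the one described here held 61.9% to 67.5% of Ddit3 FPKM. The other one went from 112 to 60.8 FPKM (log2 difference -0.90, limma adjusted p = 0.0294 with every transcript tested), so that 4 of the 12 member transcripts were differentially expressed, compared with 14.7% of all transcripts (16.2% with the block).

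Xbp1 (chromosome 14, 86423839 to 86428923), a bZIP factor that induces ER chaperones and degradation genes, was the only member that rose. FPKM was 67.3 ± 7.52 in Ad-GFP samples, from 57.0 through a median of 68.9 to 78.0. It was 129 ± 23.0 in Ad-h-NR4A2 samples, from 104 through a median of 131 to 168. The groups did not overlap, as was the case for 21.5% of all genes tested. The mean rose 1.92-fold, with a log2 difference of 0.93 (SE 0.11, limma adjusted p = 1.59e-05) and an exact permutation p of 0.00216, the smallest that 924 splits can give. These splits ignore the pairs, and an exact sign-flip test of the pairs gave p = 0.03125, the smallest that 64 flips can give. Xbp1 was higher in 6 of 6 pairs, as were 24.1% of all genes tested, with ratios from 1.34 in the pair numbered 24 to 2.44 in the pair numbered 27. A shorter Xbp1 transcript, by 26 nucleotides, was listed at 0.000202 to 0.00112 FPKM in every sample, and no amount of spliced Xbp1 can be read from these values.

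Trib3 (chromosome 3, 154162207 to 154167791), a pseudokinase that binds ATF4 and limits its activity, fell to 0.547 times its Ad-GFP mean. FPKM was 42.7 ± 13.3 in Ad-GFP samples, from 24.2 through a median of 45.4 to 59.5. It was 23.3 ± 11.1 in Ad-h-NR4A2 samples, from 10.7 through a median of 21.7 to 41.7, so that the groups overlapped. The log2 difference was -0.94 (SE 0.30, limma adjusted p = 0.0240, exact permutation p = 0.0238 over splits that ignore the pairs). An exact sign-flip test of the pairs gave p = 0.03125, again the smallest that 64 flips can give. The limma adjusted p was 0.0526 without Ad-GFP sample 24, 0.0506 without Ad-GFP sample 26, 0.0503 without Ad-h-NR4A2 sample 27, and 0.0548 without Ad-h-NR4A2 sample 29. Within pairs Trib3 was lower in 6 of 6, at 0.444 to 0.700 times the Ad-GFP value, and with the block the adjusted p was 1.03e-05.

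Ppp1r15a and Sesn2 showed smaller differences of the same sign. Ppp1r15a (chromosome 1, 102590677 to 102593752) encodes GADD34, which directs a phosphatase to eIF2α and so ends the response. Its FPKM was 77.6 ± 18.1 in Ad-GFP samples (54.3 to 104, median 74.5) and 63.2 ± 14.9 in Ad-h-NR4A2 samples (47.9 to 84.5, median 59.4). The log2 difference was -0.30 (SE 0.17, limma adjusted p = 0.185), and with the block it passed (SE 0.031, adjusted p = 3.85e-05). Sesn2 (chromosome 5, 154351305 to 154370252), a stress-induced inhibitor of mTORC1 that senses leucine, was at 37.1 ± 12.4 FPKM (22.6 to 52.4, median 34.9) and 28.4 ± 9.62 FPKM (19.8 to 41.4, median 24.8), respectively. Its log2 difference was -0.38 (SE 0.24, limma adjusted p = 0.233; with the block SE 0.048 and adjusted p = 1.27e-04). Both genes were lower in 6 of 6 pairs, and their groups overlapped.

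Asns and Chac1 showed no detectable difference with or without the block. Asns (chromosome 4, 33608891 to 33626245), asparagine synthetase, was at 66.5 ± 21.0 FPKM in Ad-GFP samples (35.9 to 88.3, median 67.2) and 65.8 ± 20.4 in Ad-h-NR4A2 samples (37.8 to 92.6, median 66.8). Its log2 difference was -0.0097 (SE 0.25, limma adjusted p = 0.979), with a 95% interval of -0.098 to 0.079 with the block. Chac1 (chromosome 3, 117711150 to 117714352), which degrades glutathione, was at 37.9 ± 9.48 FPKM (28.2 to 51.2, median 36.6) and 35.9 ± 11.8 FPKM (22.1 to 53.3, median 34.8), respectively. Its log2 difference was -0.11 (SE 0.21, limma adjusted p = 0.718), with an interval of -0.28 to 0.058 with the block. Each of these genes was higher in 3 pairs and lower in 3.

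**Figure D2:**
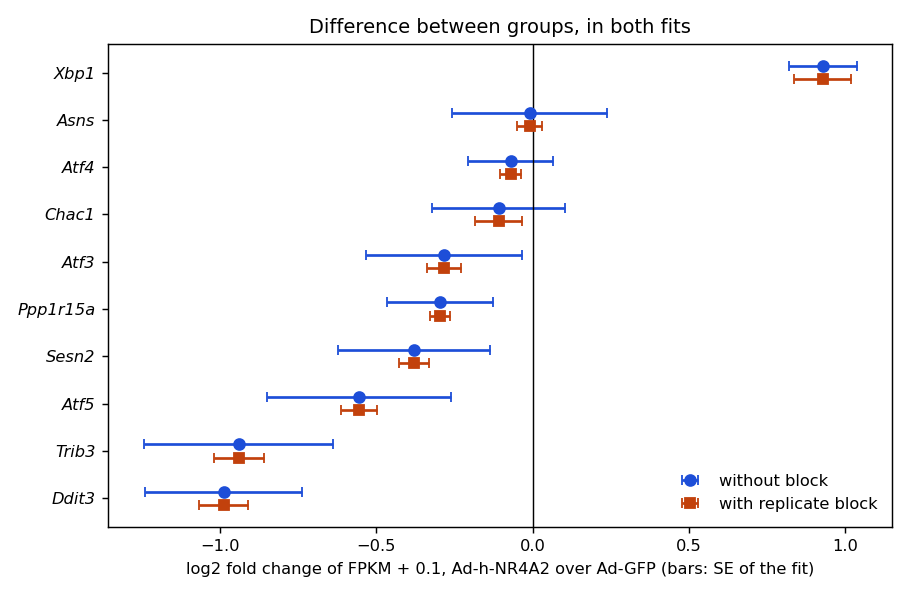
Log2 difference of FPKM + 0.1, Ad-h-NR4A2 minus Ad-GFP, for each gene, with bars of 1 SE of the limma fit without (circles) and with (squares) the sample number as a block. The block leaves each difference in place and shortens the bars of the other genes, whereas those of Xbp1 change little.

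The members other than Xbp1 varied more between sample numbers than most genes did. In Ad-h-NR4A2 samples the highest value of Trib3 was 3.88 times the lowest, and in Ad-GFP samples the highest value of Atf3 was 2.74 times the lowest. The SD between numbers, on the log2 scale, was at the 88.2th percentile for Atf4 among 8978 genes whose mean FPKM reached 1, at the 98.2th for Trib3, and at the 66.8th for Xbp1. It was at or above the 90th percentile for 8 of the 10 members. The mean deviation of same-numbered samples held 92.6% to 98.8% of the spread within groups in the 9 members other than Xbp1. It held 52.2% in Xbp1, with a median of 81.1% over genes. This share is a fraction of the variance around the group means, without adjustment for the number of samples. It is large even where same-numbered samples vary independently, and the value of Xbp1 is near what such samples give. In these 9 members, all samples numbered 24, 26, and 28 were above all samples numbered 25, 27, and 29 in both groups, an order found in 8.21% of the genes tested. That order was noticed in the values and was not tested, and the labels do not say what the numbers stand for.

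**Figure D3:**
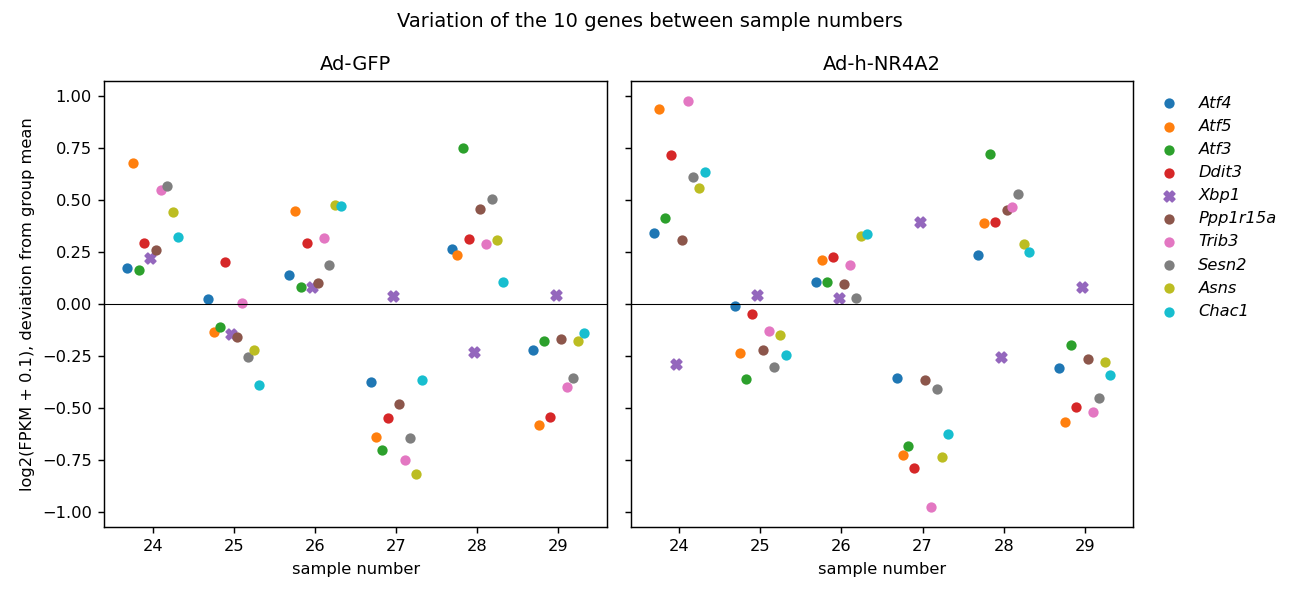
Deviation of log2(FPKM + 0.1) from the group mean, by sample number, for Ad-GFP (left) and Ad-h-NR4A2 samples (right), with a color for each gene and crosses for Xbp1. For every gene but Xbp1, the samples numbered 24, 26, and 28 lie above those numbered 25, 27, and 29 in both groups.

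Levels of 8 members ran in parallel with that of Atf4 across the 6 numbers, and that of Xbp1, averaged over the groups, ran the other way. With the log2 values of both groups averaged per number, Pearson's r with Atf4 was -0.79 for Xbp1 and, for the others, ran from 0.857 for Chac1 to 0.992 for Ddit3. The latter had an exact permutation p of 0.00139, which became 0.00625 after Benjamini-Hochberg adjustment over 9 relations, and Spearman's rho was 1 (adjusted p = 0.00833, exact permutation). Without the 2 numbers farthest from the median of Atf4, r was 0.943 for Ddit3 and 0.753 for Chac1. Xbp1 had a negative relation (r = -0.79, adjusted p = 0.0458, exact permutation; rho = -0.71, adjusted p = 0.136, exact permutation), which rested on the 2 farthest numbers, since r was -0.45 without them. The groups differed in this. In Ad-h-NR4A2 samples Xbp1 was lowest in number 24 (104 FPKM) and highest in number 27 (168 FPKM), where Atf4 was highest and lowest, respectively. In Ad-GFP samples Xbp1 was highest in numbers 24 and 26 (78.0 and 70.7 FPKM), where Atf4 ranked 2 and 3. It was lowest in number 28, where Atf4 was highest. The adjusted p of Pearson's r was below 0.05 for 9 of 9 relations. Over 8977 genes whose mean FPKM reached 1, 9.74% had an r at or above that of Chac1 and 8.05% an r at or below that of Xbp1. Many other genes thus followed Atf4 as closely as Chac1, the member with the lowest positive r. When the difference between the groups per number was used instead of the level, 0 of 9 passed by exact permutation, and 0 of 9 had an unadjusted p below 0.05 for Pearson's r. The points share libraries and depth, and the variation of a number is thus a description of these experiments.

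The wider pathway was described with 9 lists of 138 genes, of which 128 could be tested, and 17 of these were differentially expressed (13.3%), 12 higher and 5 lower, compared with 15.2% of all genes tested. By the adjusted p alone, the counts of the lists stand beside 19.3% of all genes higher and 21.7% lower without the block and 27.1% and 32.3% with it. Among 16 genes of the eIF2 kinases, eIF2, eIF2B, and the phosphatase, 0 were differentially expressed by limma. By the adjusted p alone, 7 were higher and 2 lower, or 9 and 3 with the block, and the median log2 difference was 0.14. PERK (Eif2ak3) went from 3.19 ± 0.36 to 4.38 ± 0.371 FPKM (log2 difference 0.45, limma adjusted p = 0.00128). GCN2 (Eif2ak4) was at 3.23 and 3.04 FPKM (-0.09, adjusted p = 0.504).

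Of 9 other bZIP genes tested, Cebpd rose from 6.63 to 12.9 FPKM (log2 difference 0.95, limma adjusted p = 0.0136) and Jund, a subunit of AP-1, fell from 73.7 to 41.8 FPKM (-0.80, adjusted p = 9.57e-05). Cebpb, a partner of ATF4 and CHOP, was at 45.1 ± 16.4 and 39.1 ± 6.95 FPKM, respectively (adjusted p = 0.509). By the adjusted p alone, 4 of the 9 were higher and 1 lower without the block, and 4 were higher and 4 lower with it.

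Of 13 enzymes of amino acid synthesis and one-carbon metabolism, 2 rose and 0 fell. Both directions together, this share is near that of all genes (15.2%, with 7.94% higher and 7.24% lower). By the adjusted p alone, 7 were higher and 0 lower, or 7 and 1 with the block, and the median log2 difference was 0.33. Got1, an aspartate aminotransferase, rose from 272 ± 35.8 to 554 ± 75.3 FPKM (log2 difference 1.02, limma adjusted p = 2.66e-06). Phgdh, which starts serine synthesis, rose from 16.9 to 26.6 FPKM (0.69, adjusted p = 0.0233). It was no longer differentially expressed without Ad-GFP sample 25 (adjusted p = 0.0544), Ad-GFP sample 27 (0.0512), Ad-h-NR4A2 sample 26 (0.0528), or Ad-h-NR4A2 sample 24, where the ratio of means was 1.45.

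Of 11 amino acid transporters, Slc7a5, the large neutral amino acid exchanger LAT1, fell from 32.0 ± 7.38 to 14.2 ± 3.99 FPKM (log2 difference -1.18, limma adjusted p = 3.66e-04). Slc38a1, a glutamine transporter, rose from 58.6 ± 8.67 to 94.6 ± 6.26 FPKM (0.70, adjusted p = 2.78e-05). Slc7a3, a cationic amino acid transporter, rose from 0.217 to 0.661 FPKM (1.29, adjusted p = 1.03e-04), a low level in both groups. The median log2 difference of the list was -0.13. By the adjusted p alone, 2 of its genes were higher and 2 lower without the block, and 2 were higher and 5 lower with it. Of 20 cytosolic aminoacyl-tRNA synthetases, 0 were differentially expressed by limma. By the adjusted p alone, 6 were higher and 1 lower without the block, and 8 were higher and 9 lower with it.

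Of 14 further ATF4 and CHOP targets tested, 2 rose and 2 fell, with a median log2 difference of -0.11. By the adjusted p alone, 2 were higher and 4 lower without the block, and 2 were higher and 7 lower with it. Gdf15, a secreted stress cytokine, fell from 125 ± 50.1 to 51.8 ± 24.4 FPKM (log2 difference -1.29, limma adjusted p = 0.0110). It was lower in 6 of 6 pairs, as were 29.1% of all genes tested. Its groups overlapped, with Ad-GFP sample 27 at 47.4 FPKM and Ad-h-NR4A2 sample 28 at 83.8 FPKM. Bbc3, the proapoptotic factor PUMA, fell from 6.38 to 3.86 FPKM (-0.71, adjusted p = 0.00354). Ndrg1, which many stresses induce, rose from 5.08 ± 2.36 to 77.8 ± 23.9 FPKM (3.96, adjusted p = 4.84e-07), and Stc2, a secreted glycoprotein, from 8.14 to 13.7 FPKM (0.75, adjusted p = 1.26e-04). Ddit4, an mTORC1 inhibitor, was at 35.5 and 33.5 FPKM (adjusted p = 0.509). Fgf21 was not tested, because it was listed at 0 in some samples, and had 0.316 FPKM as its highest Ad-GFP value and 0.694 as its highest Ad-h-NR4A2 value.

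Among 28 ER sensors, chaperones, and degradation genes tested, 5 rose and 0 fell. Of all genes tested, 15.2% were differentially expressed, 7.94% higher and 7.24% lower. By the adjusted p alone, 16 of the 28 were higher and 1 lower, or 18 and 2 with the block, with a median log2 difference of 0.22. Ern1, which encodes the IRE1 enzyme that splices Xbp1 mRNA, rose from 13.2 ± 3.14 to 24.4 ± 6.90 FPKM (log2 difference 0.86, limma adjusted p = 0.00261). Derl3, which acts in the removal of misfolded proteins, rose from 0.965 to 2.47 FPKM (1.32, adjusted p = 1.11e-04), and Sec61b, a subunit of the ER translocon, from 45.9 to 80.1 FPKM (0.81, adjusted p = 3.76e-06). The others were Manf (0.76) and the translocon subunit Sec61a1 (0.70), which were named after their values were seen. Hspa5, the ER chaperone BiP, went from 625 ± 65.5 to 847 ± 23.1 FPKM (0.44, adjusted p = 8.27e-05), under the fold limit, and Atf6 was at 30.1 and 28.4 FPKM (adjusted p = 0.596).

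Of 8 mitochondrial chaperones and proteases tested, 0 were differentially expressed by limma, and by the adjusted p alone 1 was higher and 1 lower, or 3 and 1 with the block. Of 9 paralogs of the members, Trib1 fell from 8.03 to 4.76 FPKM (log2 difference -0.67, limma adjusted p = 0.0477). It was no longer differentially expressed when any of 9 of the 12 samples was left out, that is, Ad-GFP sample 25, 26, 27, or 29 or any Ad-h-NR4A2 sample but 29 (adjusted p = 0.0627 to 0.101).

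**Figure D4:**
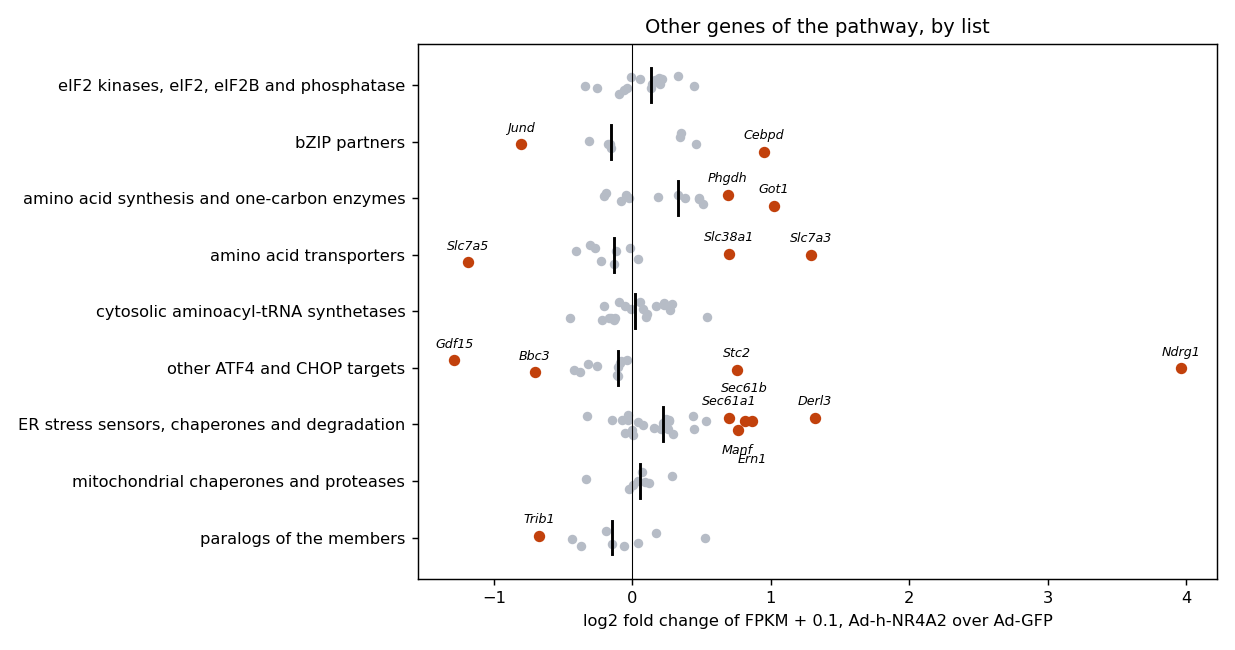
Log2 difference of FPKM + 0.1, Ad-h-NR4A2 minus Ad-GFP, for each tested gene of the 9 wider lists, with 1 row per list, named orange points for differentially expressed genes, gray points for the others, and a black bar for the list median. The ER list has 5 orange points on the positive side and 0 on the negative side, and Ndrg1, at 3.96, lies farthest from 0.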

How the data were processed

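The authors prepared stranded mRNA libraries, sequenced them as paired ends in 1 run, used STAR for alignment to Rn5, and used Cufflinks (workflow version 2.1.0 in the submitters' processing notes) to obtain FPKM per RefSeq transcript. The deposited FPKM of 18752 transcripts were used here. Of 225024 values, 225016 carry limits equal to the FPKM, which were not used as errors. A gene with several transcripts was represented by the one with the highest mean FPKM. Log2(FPKM + 0.1) of 10950 genes above 0 in all 12 samples was fitted with limma 3.58.1 (lmFit, eBayes with trend) in R 4.3.3, two-sided, with Benjamini-Hochberg adjustment over all genes. Fold changes and SE are on this scale, which understates the change of low genes. Genes with an adjusted p below 0.05 and a ratio of mean FPKM of at least 1.5 were called differentially expressed. The main fit had no block, following the unpaired statistics of the study. Deviations of same-numbered samples from their group means correlated at 0.347 to 0.623 over genes, and 6 of 6 numbers matched their own number best, so that the numbers, which per the labels both groups share, were taken to pair the samples. For single genes, exact permutation tests (two-sided) were added. Depth was recovered from values of up to 6 fragments, of which 99.2% to 99.9% per sample were whole within 0.05. Without deposited counts, no counting interval was given.

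On simulated data with 200 of 10950 genes changed by a log2 of 1.5, 197 were called with the right sign, beside 2 unchanged genes, and with the block 185 and 4. For the block, a number effect as large as the SD within groups was added on top of that SD. In the real data that SD already holds the number effect, so the 185 and 4 do not measure the power of the block here. Without changes both called 0.

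The members, lists, and tests were chosen with earlier results of these data known. Named were all members, at most the 3 largest rises and falls called in each list, 9 genes named in advance (Eif2ak3, Eif2ak4, Ern1, Atf6, Hspa5, Cebpb, Ddit4, Gdf15, and Fgf21), Nr4a2, and the 5 genes most like Atf4. Outside this rule, Manf, Sec61a1, and the cell markers given by name were chosen after their values were seen. Listed at 0 in all samples was Nupr1. Alternatives were pseudocounts of 1 and 0.01, other filters, quantile normalization, the TPM scale, transcripts summed, limma without trend, other fold limits, the block, and each sample left out. Combinations of the block with another choice were added after seeing the data. Tables used SciPy 1.17.1, NumPy 2.4.6, and pandas 2.3.3 in Python 3.11.15, and plots Matplotlib 3.10.9.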

Additional observations from a re-analysis of the deposited data

Results flagged for a closer look

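Of 64 groups of 6 samples examined, for 32 named genes, 2 held a sample that stood apart by Dixon's criterion (a gap above the 95% critical share of the range), and chance flags about 1 in 20 groups. Cebpb was at 77.9 FPKM in Ad-GFP sample 24, with a median of 39.3 in the other 5 samples and a gap of 0.789 of the range. Slc38a1 was at 82.8 FPKM in Ad-h-NR4A2 sample 24, with a median of 95.4 in the other 5 samples and a gap of 0.682.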

How the results depend on the processing

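The 10 members gave 3 differentially expressed genes, and 3 passed by the adjusted p alone. With the replicate block, 7 passed by the adjusted p, and still 7 when the block was combined with the TPM scale, a pseudocount of 1, or summed transcripts, and 8 with quantile normalization. The block changed no call at the 1.5-fold limit among members, where 3 remained the count. With both samples of a number left out, the fit with the block gave 7 or, without number 24, 8. With single samples left out, 2 to 4 members were differentially expressed, 1 to 3 of them lower and 1 higher, and 2 to 4 passed by the adjusted p. All genes gave 1542 to 1770, the amino acid synthesis list 1 to 3, and the paralogs 0 to 1. At a fold limit of 2, the counts were 0 members (0 higher, 0 lower), 803 genes in all, 0 other bZIP genes, 1 amino acid synthesis gene, 2 other targets, 1 ER gene, and 0 paralogs, as fewer genes can reach that limit. The paralogs also gave 0 without a filter, with quantile normalization, and in limma without trend, and the cause was not tested. Relations with Atf4 gave 0 of 9 when differences replaced levels. The direction reversed for Asns at log2 differences of 0.08 (without Ad-GFP sample 24), 0.09 (26), and 0.05 (28), at 0.02, 0.14, and 0.05 without Ad-h-NR4A2 sample 25, 27, or 29, and with the block at 0.0203 and 0.0106 without number 26 or 29. It also reversed for Atf4 (0.0013) and Chac1 (0.0164) without Ad-h-NR4A2 sample 27. With single samples left out, the lowest values were -0.15 for Atf4, -0.17 for Asns, and -0.24 for Chac1. None of these values passed. Slc7a3, Fgf21, and Cd68 lay below 1 FPKM in all samples, where depth limits precision.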

Other observations

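Among 8977 other genes whose mean FPKM reached 1, those most like Atf4 in their 12 deviations from the group means were Spns1 and Cdc34 (Pearson's r of 0.983 for both), Ddit3 (0.973), Gtpbp2 (0.973), and Zfp238 (0.971). The deviations share libraries, and the values are a description. Trib3 ranked 12, Atf5 49, Sesn2 81, Ppp1r15a 95, Asns 99, Atf3 278, and Chac1 509, whereas Xbp1 ranked 8013 (r = -0.64). Of these 4 genes that are no members, Cdc34, a ubiquitin-conjugating enzyme, was at 149 FPKM in Ad-GFP and 113 in Ad-h-NR4A2 samples (log2 difference -0.40, limma adjusted p = 0.00500), and Zfp238 at 46.2 and 31.5 (-0.57, adjusted p = 0.0235). Spns1 and Gtpbp2 did not pass without the block (adjusted p = 0.113 and 0.0856) and passed with it (8.21e-05 and 9.92e-06).

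The pair numbered 24 had the ratio nearest to 1 in all 3 differentially expressed members and the highest ratio in 7 of the 9 members with a negative log2 difference. It also had the smallest change of the 6 pairs in 43.9% of the 1662 differentially expressed genes, compared with 7.58% to 15.4% for each of the others.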
